A study of Mus musculus with 15 samples.

Results

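The genes described here are 9 genes of MHC class I and of the interferon response, out of 27803 genes in the count tables. They are B2m, H2-K1 and H2-D1 of MHC class I, and Ifit3, Ifitm2, Ifitm3, Irf7, Bst2 and Isg15, which are known targets of interferon. The members were chosen by name, and every table was searched for their rows. The rows of B2m, H2-K1, H2-D1, Ifitm2, Ifitm3 and Bst2 were present in all 15 tables, those of Ifit3 and Isg15 in 14 and that of Irf7 in 12.

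The tables hold Drop-seq counts of single cells from 15 mice in 3 groups of 5, all labelled C57BL/6. WT cerebella were taken untreated at postnatal day 7, when cerebellar granule neuron progenitors (CGNPs) are still dividing. Medulloblastomas were taken at day 15 from mice with the genotype Math1-Cre:SmoM2/EYFPloxP/loxP (M-Smo), in which Cre from an Atoh1 (Math1) promoter turns on SmoM2, a constitutively active form of the Sonic hedgehog (SHH) receptor component SMO, in CGNPs. Before harvest these mice received 3 daily doses of either vehicle or 75 mg/kg vismodegib, an inhibitor of SMO. Both tumor groups carry the same Cre and SmoM2 alleles, so vismodegib and vehicle differ in treatment. Vehicle and WT differ in genotype, in age, in the doses of vehicle and in the device that captured the cells. Only tumor cells had a spike-in of human cells. These differences between vehicle and WT cannot be told apart.

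MHC class I molecules present peptides from inside the cell to CD8 T cells. Each consists of a polymorphic heavy chain, such as those made by H2-K1 and H2-D1, and the invariant light chain beta-2 microglobulin, made by B2m. Interferons bind surface receptors that act through JAK kinases and STAT proteins, and the resulting complexes switch on genes with an interferon-stimulated response element in their promoters. Neurons are known for low MHC class I, while microglia and vessel cells make more of it.

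The start regions of 8 of the 9 genes held a short motif tied to these pathways, and 1 stretch of each is shown so that the genes can be compared by sequence. Windows from 250 bases before to 50 bases after each RefSeq transcription start on GRCm38.p6 were searched on both strands. An ISRE-type motif was searched as GAAANNGAAA, where N is any base. It was found in 1126 of all 32817 promoter windows of the same length (3.43%). A kappa B site was searched as GGGGATTCCC, which was found in 35 windows (0.107%). Capitals mark the motif or, where copies overlap, the joined copies.
B2m, chr2:122147523-122147582, plus strand: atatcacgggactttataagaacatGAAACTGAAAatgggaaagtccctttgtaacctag
Bst2, chr8:71537568-71537627, minus strand: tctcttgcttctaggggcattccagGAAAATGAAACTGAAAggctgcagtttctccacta
Isg15, chr4:156200862-156200921, minus strand: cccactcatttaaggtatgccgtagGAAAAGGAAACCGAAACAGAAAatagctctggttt
Ifit3, chr19:34583348-34583407, plus strand: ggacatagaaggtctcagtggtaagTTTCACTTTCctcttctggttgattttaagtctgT
Ifitm2, chr7:140955973-140956032, minus strand: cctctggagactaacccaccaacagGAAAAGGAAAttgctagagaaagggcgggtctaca
Ifitm3, chr7:141010723-141010752, minus strand: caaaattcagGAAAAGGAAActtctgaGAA
H2-K1, chr17:34000439-34000468, minus strand: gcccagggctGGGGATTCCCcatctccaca
H2-D1, chr17:35262913-35262942, plus strand: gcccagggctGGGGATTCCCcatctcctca
Each sequence is read along the strand of its gene. The ISRE-type match lay 139 to 130 bases before the start of B2m, 46 to 37 before that of Ifitm2 and within the first 50 transcribed bases of Ifitm3, which had another match in those bases. Bst2 held 2 overlapping copies and Isg15 held 3. Ifit3 held 2 separate copies on the opposite strand, and the last capital of its stretch is the first letter of the other copy. Likewise, the last 3 capitals of the Ifitm3 stretch are the first letters of its other match. The windows of H2-K1 and H2-D1 held no ISRE-type match of these letters but shared the kappa B site, and that of Irf7 held neither. Only this exact form of a kappa B site was searched, so other forms may lie in the windows of B2m or the other genes. A match is a run of letters and says nothing of binding in these cells.

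On GRCm38, B2m lies at chr2:122147686-122153083, H2-K1 at chr17:33996017-34000347 and H2-D1 at chr17:35262730-35267499. Ifitm2 at chr7:140954837-140955987 and Ifitm3 at chr7:141009586-141010770 are both on chromosome 7, and Irf7 lies at chr7:141262706-141266481. Ifit3 is at chr19:34583531-34588731, Bst2 at chr8:71534255-71537456 and Isg15 at chr4:156199424-156200818. Drop-seq reads come from the 3′ end of a transcript, so genes with a near-identical end can share reads. Of the 50-base words in the last 500 bases, 41.9% were shared with other genes for Ifitm2, among them Gm45717, which overlaps it on the same strand. This share was 14.9% for Ifit3, 14% for Ifitm3 and 9.53% for H2-D1, and under 1% for the other 5 genes, with 0.443% for H2-K1. Counts of Ifitm2 are therefore uncertain as to their gene of origin.

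Of 51841 barcodes, 37946 cells were kept, which held 1554478 to 16745299 unique molecular identifiers (UMIs) per animal, with medians of 1082.5 to 2597 UMIs per cell. Any pair of the 105 pairs of tables shared at most 13 barcodes. Cells were clustered and named by marker genes, and a name with -like is such a marker-based class. CGNP-like cells were 32263 of the 37946, or on average 70.0% of cells in WT cerebella, 91.5% in vehicle-treated and 85.5% in vismodegib-treated tumors. The other classes were small, with 628 microglia-like, 1070 astrocyte-like, 815 oligodendrocyte-like, 178 endothelial-like and 398 vascular fibroblast-like cells over all animals. GABAergic lineage-like and Purkinje-like cells were named only among WT cells, and 1337 tumor cells of a cluster led by hemoglobin genes were not named. A level is given as UMIs of a gene per 1000000 UMIs (CPM) of that class in that animal.

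The 9 genes differed in how much was counted. B2m had 18479 UMIs, with at least 1 UMI in 20.3% of kept cells. H2-D1 had 6798 UMIs, Ifitm2 4682, Ifitm3 1866, H2-K1 1667 and Bst2 660. Isg15, Ifit3 and Irf7 were near the limit of detection, with 88, 48 and 34 UMIs. The rare microglia-like cells, 1.65% of all cells, held 38.9% of the UMIs of B2m, 55.8% of those of H2-K1 and 74.7% of those of Bst2, which encodes tetherin, a protein that holds budding virus at the cell surface. CGNP-like cells, 85.0% of all cells, held 40.6% of B2m, 60.7% of H2-D1 and 73.0% of Ifitm2 UMIs but 6.86% of Ifitm3 UMIs.

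**Figure D1:**
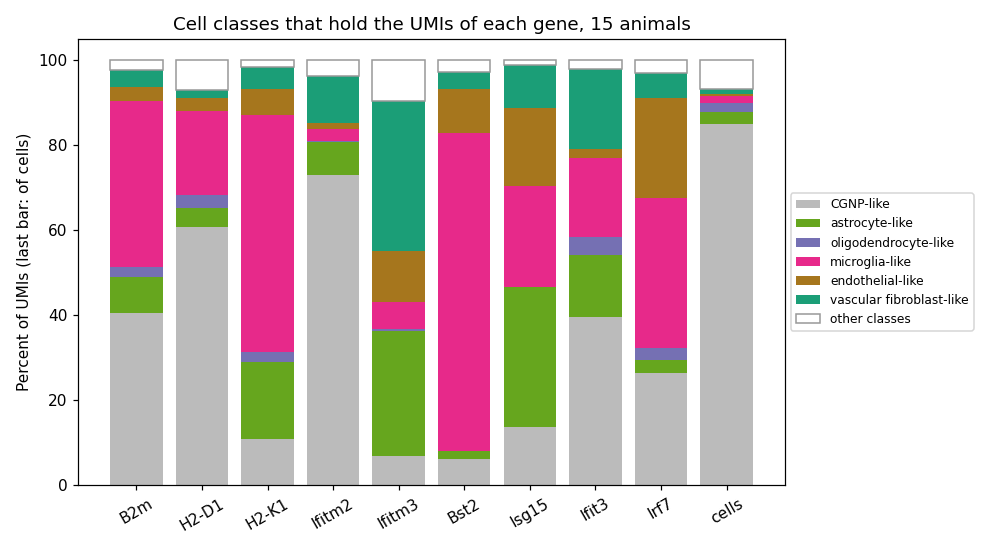
Percent of the UMIs of each of the 9 genes (vertical axis) found in each cell class over all 15 animals, with the share of cells in the last bar. Microglia-like cells, 1.65% of cells, hold 74.7% of Bst2 and 55.8% of H2-K1 UMIs, and CGNP-like cells hold 73.0% of Ifitm2 UMIs.

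B2m, the light chain shared by all MHC class I molecules, was highest in microglia-like cells. Its mean level over the 15 animals was 4172 CPM there and 1148 CPM in endothelial-like cells, and it was higher in microglia-like cells in 15 of 15 animals (adjusted p = 0.00092, exact sign-flip permutation test of log2(CPM + 10), adjusted over 45 pairs of neighbouring classes). Endothelial-like and vascular fibroblast-like cells, at 785 CPM, did not differ past the threshold (adjusted p = 0.10). Astrocyte-like cells followed at 492 CPM, oligodendrocyte-like cells at 196 CPM and CGNP-like cells at 97.1 CPM. The step from astrocyte-like to oligodendrocyte-like cells passed the test (adjusted p = 0.0055), and that from oligodendrocyte-like to CGNP-like cells did not (adjusted p = 0.062). The classical heavy chain H2-K1 had a steeper range, from 415 CPM in microglia-like and 211 CPM in endothelial-like cells to 16 CPM in the oligodendrocyte-like class and 3.08 CPM in CGNP-like cells. H2-D1, the other classical heavy chain, ran from 679 CPM in microglia-like and 390 CPM in endothelial-like cells to 131 CPM in vascular fibroblast-like, 88.3 in astrocyte-like, 81.7 in oligodendrocyte-like and 54.5 in CGNP-like cells. Its last 4 classes did not differ from their neighbours in this order past the threshold, and in WT alone they stood at 56.5 CPM in vascular fibroblast-like, 53.1 in CGNP-like, 46.5 in oligodendrocyte-like and 21 CPM in astrocyte-like cells.

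The IFITM proteins block the entry of viruses into cells, and their genes had another order. Vascular fibroblast-like cells had 541 CPM of Ifitm2 and endothelial-like cells 125 CPM, a step that passed the test (adjusted p = 0.00092). From endothelial-like through astrocyte-like (117 CPM) and microglia-like (101 CPM) to CGNP-like cells (49.9 CPM) no step passed the threshold, and oligodendrocyte-like cells were lower than CGNP-like cells, at 7.36 CPM, in 15 of 15 animals. Ifitm3 was at 639 CPM in vascular fibroblast-like, 387 in endothelial-like and 143 CPM in astrocyte-like cells, while CGNP-like cells had 1.90 CPM. In WT alone the first 2 classes stood in the other order, at 525 and 581 CPM. Mural-like cells, which wrap small vessels, were left out of this order because 6 of 15 animals had the 5 cells needed for a level. Their Ifitm3 was at 750, 1614 and 578 CPM in WT animals 1, 3 and 4, at 1339 CPM in vehicle-treated tumor 5 and at 1755 and 1592 CPM in vismodegib-treated tumors 4 and 5, with 168 UMIs in all 67 mural-like cells. Bst2 was at 235 CPM in microglia-like and 143 CPM in endothelial-like cells, which did not differ past the threshold (adjusted p = 0.13) and stood in the other order in WT, at 250 and 310 CPM. Oligodendrocyte-like cells had 0 UMIs of Bst2 in all 15 animals.

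**Figure D2:**
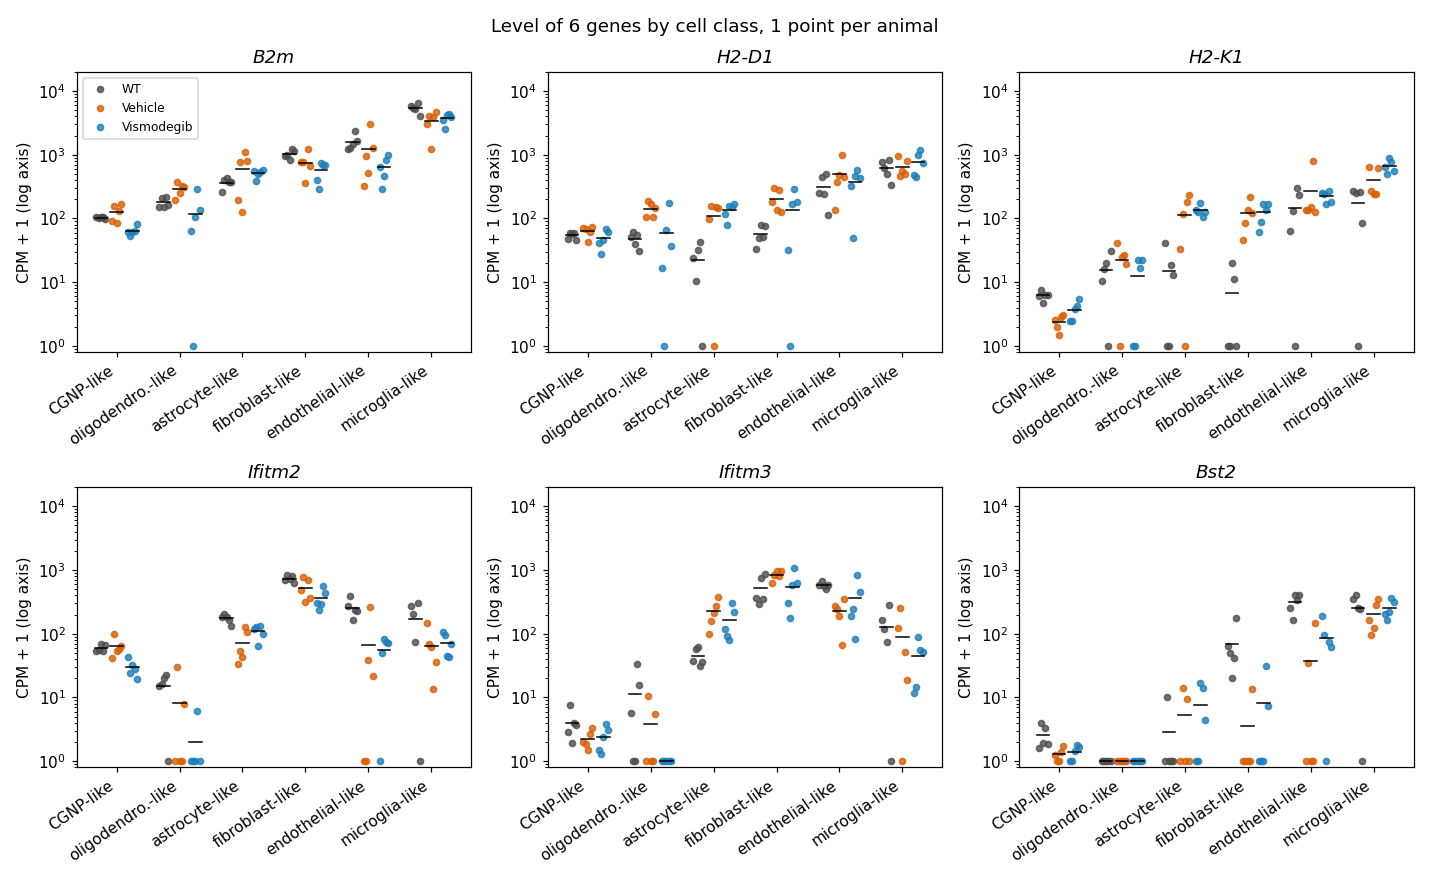
Level (CPM + 1, log axis) of 6 genes in 6 cell classes, with 1 point per animal and black lines for the group means of WT, vehicle and vismodegib animals. B2m, H2-K1 and H2-D1 have their highest group means in microglia-like cells in all 3 groups, and Ifitm2 in vascular fibroblast-like cells, while in WT Bst2 and Ifitm3 have theirs in endothelial-like cells (310 and 581 CPM).

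Low levels in CGNP-like cells were read beside RNA of other cells in the same droplets. The complement genes C1qa, C1qb and C1qc, which microglia make, reached in CGNP-like cells 0.0592% to 0.138% of their summed level in microglia-like cells over the 3 groups. B2m in CGNP-like cells was 1.71% to 3.71% of its microglia-like level, above that share. H2-K1 was at 0.342% in vehicle-treated tumors, 0.401% in vismodegib-treated tumors and 3.00% in WT cerebella, each above the complement share. By group, Bst2 was at 0.611% beside a complement share of 0.0904% in WT, at 0.137% beside 0.0592% with vehicle and at 0.152% beside 0.138% with vismodegib. These shares concern RNA of microglia alone. The fibroblast markers Col1a1, Col1a2 and Col3a1 summed in CGNP-like cells to 30.6 CPM in WT, 7.81 with vehicle and 10.7 CPM with vismodegib. This was 0.220%, 0.0573% and 0.0818% of their level in vascular fibroblast-like cells, so the share differed between WT and tumors. The part of RNA from other classes in the levels of the members was not tested.

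Purkinje-like cells, the output neurons of the cerebellar cortex, were present only in the WT groups, with 106 cells. H2-D1 there was at 351, 394, 608, 509 and 483 CPM in WT animals 1 to 5 (469 ± 101, SD, n = 5), with a UMI in 73.6% of cells. All 5 values lay above those of WT CGNP-like cells, which were 46.4, 58.8, 55.9, 59.0 and 45.5 CPM. This difference between classes was not tested. H2-K1 had 0 UMIs in the same 106 cells, which allows a share of up to 2.83% of cells with a UMI, counting error only. B2m in Purkinje-like cells was at 64.4 to 196 CPM, a range that holds the CGNP-like levels of WT animals. Purkinje-like cells had a median of 3143 UMIs and WT CGNP-like cells of 1326. Of the classical heavy chains, H2-D1 but not H2-K1 was thus counted in Purkinje-like cells.

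Vismodegib was compared with vehicle to ask how SMO inhibition changes these genes in each class. In CGNP-like cells B2m and Ifitm2 fell, and H2-D1 did not pass the test. B2m was at 91.5, 155, 85.2, 128 and 168 CPM in vehicle-treated tumors 1 to 5 and at 59.3, 53.0, 60.9, 63.6 and 80.3 CPM in vismodegib-treated tumors 1 to 5. Each vismodegib-treated tumor was below every vehicle-treated one, and the WT cerebella, at 95.4 to 106 CPM, lay within the range of the vehicle-treated tumors. The log2 fold change was -0.98 (SE 0.21, 95% interval -1.43 to -0.54, adjusted p = 0.0066, edgeR's quasi-likelihood test, adjusted by Benjamini-Hochberg over all genes tested). Means were 125 ± 36.9 CPM with vehicle and 63.4 ± 10.2 CPM with vismodegib (SD, n = 5 each).

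Ifitm2 was at 41.1, 96.9, 53.1, 55.9 and 63.4 CPM with vehicle and at 42.5, 23.4, 31.4, 27.0 and 18.8 CPM with vismodegib. The groups overlapped through vehicle-treated tumor 1 and vismodegib-treated tumor 1, and the other 4 tumors of each group were separate. It fell by 1.15 on the log2 scale (SE 0.26, adjusted p = 0.0089). WT cerebella had 52.3 to 68.2 CPM. H2-D1 was at 69.6, 67.6, 42.3, 60.6 and 73.1 CPM with vehicle and at 39.6, 26.6, 44.3, 67.3 and 60.3 CPM with vismodegib, and the groups overlapped. Its log2 fold change of -0.37 had a 95% interval of -0.88 to 0.15 (adjusted p = 0.38).

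These 3 members were tested in CGNP-like cells, since the other 6 had too few counts to pass the filter. This filter keeps a gene only if at least 5 animals reach the CPM that 10 UMIs give at the median total, here 2.25 CPM, and all 10 tumors reached it for each of the 3. The 2 calls among them compare with 12.9% of all 12414 genes called in either direction and 4.4% called lower. The median log2 fold change of the 3 was -0.98, beside 0.00 for all genes tested. H2-K1, at 1.51, 1.01, 0.501, 1.84 and 2.05 CPM with vehicle and 1.48, 1.5, 2.77, 3.22 and 4.44 CPM with vismodegib, was not tested. Serial numbers in the sample titles, cut here between 10 and 12, split the tumors into 3 and 2 per group. B2m with vismodegib was at 57.7 against 111 CPM for serial numbers up to 10 and at 71.9 against 148 CPM for serial numbers from 12. Since the groups did not overlap, any split would give B2m lower in both sets, so this adds no support. For Ifitm2 the means of the 2 sets were 32.4 against 63.7 CPM and 22.9 against 59.7 CPM. For H2-D1 they were 36.8 against 59.8 CPM and 63.8 against 66.9 CPM, so the sets differed for this gene. Summed microglial markers in CGNP-like cells had a median of 23.7 CPM (9.27 to 44.0) with vehicle and 52.1 CPM (42.2 to 65.8) with vismodegib for all 12 markers. The part of RNA from other cells in these levels was not tested.

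**Figure D3:**
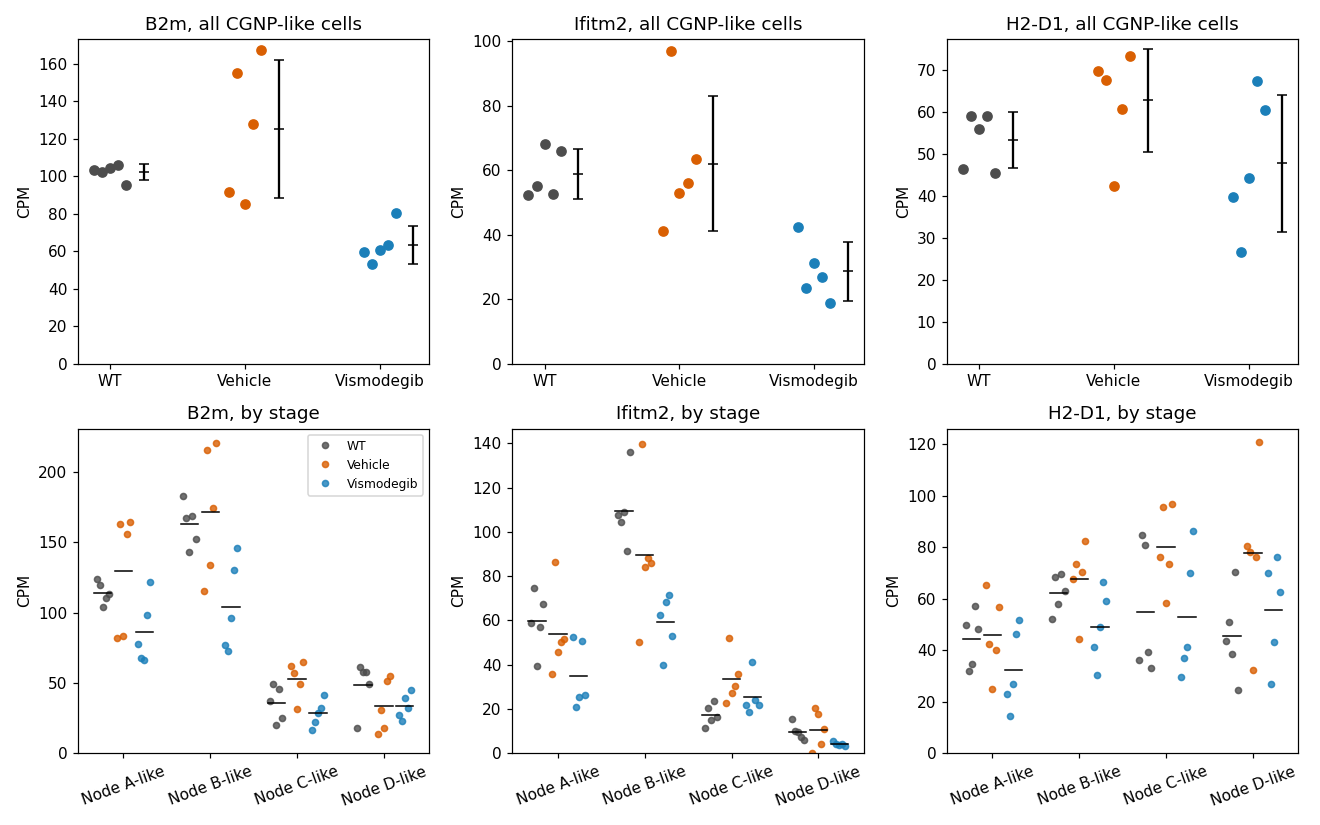
Level (CPM) of B2m, Ifitm2 and H2-D1 in all CGNP-like cells (top, 1 point per animal with mean and SD) and by stage (bottom, points per animal and mean lines). The 5 vismodegib-treated tumors lie at 53.0 to 80.3 CPM of B2m, below all 5 vehicle-treated tumors, and B2m and Ifitm2 are higher in Node A-like and Node B-like than in Node C-like cells.

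CGNP-like cells span stages from dividing to differentiating cells, named Node A-like (S to M phase, with Top2a and Mki67), Node B-like (from G1 into early S, with Gli1 and Atoh1), Node C-like (differentiating, with Dcx and Tubb3) and Node D-like (late differentiation, with Rbfox3 and Grin2b). B2m depended on stage. Over the 15 animals the mean was 146 CPM for Node B-like, 110 for Node A-like, 38.8 for Node C-like and 38.6 for Node D-like cells. The first 2 steps passed an exact sign-flip permutation test (adjusted p = 0.000275 each, over 9 pairs), in 14 and 15 of 15 animals, and the last did not (adjusted p = 0.96). Ifitm2 fell at every step, from 86.1 CPM for Node B-like through 49.5 for Node A-like and 25.5 for Node C-like to 8.15 for Node D-like cells, each with an adjusted p of at most 0.000769. H2-D1 had no such slope, with 62.6 CPM for Node C-like, 59.7 for Node B-like, 59.6 for Node D-like and 40.9 for Node A-like cells. The order of stages was thus B, A, C, D for Ifitm2 and flat but for Node A-like cells for H2-D1.

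The stages also changed in share. Node A-like and Node B-like cells gave 30.1% and 35.3% of CGNP-like UMIs with vehicle and 21.7% and 19.8% with vismodegib, while Node D-like cells gave 5.89% and 31.7%. Within a stage, B2m was at 130 CPM with vehicle and 86.4 with vismodegib in Node A-like cells, at 172 and 104 in Node B-like, at 52.7 and 28.3 for Node C-like and at 33.6 and 33.3 for Node D-like cells. The log2 fold changes were -0.59, -0.70, -0.84 and -0.09, and none passed the test (adjusted p = 0.33, 0.15, 0.32 and 0.99 by edgeR), against background shares of genes called of 1.97%, 3.08%, 0.258% and 0% of all genes in these 4 stages. At unadjusted p under 0.05, members counted 2 of 3 in Node A-like, 2 of 3 in Node B-like, 1 of 3 in Node C-like and 0 of 2 in Node D-like cells. The shares above are for adjusted p, and the share of all genes at the unadjusted threshold was not counted. Nothing is therefore read from counts at unadjusted p, here or in the other classes below.

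The stages, with the clusters without a stage name as a further group, were then weighted as in the vehicle-treated tumors. B2m was 125 ± 35.2 CPM with vehicle and 82.4 ± 22.1 CPM with vismodegib (exact permutation p = 0.063, two-sided). Ifitm2 was 62.8 ± 21.4 and 40.6 ± 9.71 CPM (exact permutation p = 0.056). This weighting was chosen after the data were seen. The vehicle stage levels set to the vismodegib stage mix gave 93.7 ± 13 CPM of B2m and 45.6 ± 8.19 CPM of Ifitm2. Stage mix and level thus differed in the same tumors, and neither gene passed the test at a fixed mix or within a stage.

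The share of CGNP-like cells with a UMI gave the same direction. It was 20.6% with vehicle and 11.4% with vismodegib for B2m (exact permutation p = 0.056, adjusted 0.43 over 180 tests) and 11.8% and 5.26% for Ifitm2 (exact p = 0.032, adjusted 0.36). With each cell thinned to 500 UMIs the shares were 5.43% and 2.36% for B2m and 2.63% and 1.16% for Ifitm2. Each then had an exact p of 0.0079, the smallest that 5 against 5 can give, and an adjusted p of 0.16. Median UMIs of CGNP-like cells were 1738 and 1785. No class of these data lacks B2m, and the share for Ifitm2 in oligodendrocyte-like cells, where its level was lowest, was 1.39% with vehicle and 0.417% with vismodegib.

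In the stroma no member passed the test between vismodegib and vehicle. In microglia-like cells 0 of 4 members tested were called by edgeR, beside 0.189% of all genes, and 0 by DESeq2, with 1 at an unadjusted p under 0.05. B2m was at 3007, 4028, 1222, 3983 and 4683 CPM with vehicle and at 3560, 2497, 4155, 4403 and 3942 CPM with vismodegib, and the groups overlapped throughout. Its log2 fold change was 0.17 (adjusted p = 0.88), while in CGNP-like cells it was -0.98. On the log2(CPM + 10) scale the difference between the classes was -1.09 with an exact permutation p of 0.0079, and the adjusted p over 18 such comparisons was 0.14, so it did not pass. H2-K1 was the member at an unadjusted p of 0.031. It was at 638, 267, 244, 243 and 626 CPM with vehicle and at 646, 502, 881, 759 and 553 CPM with vismodegib, so that the groups overlapped (log2 fold change 0.70, SE 0.30, adjusted p = 0.46). A UMI of it was found in 44.9% and 59.2% of microglia-like cells (exact permutation p = 0.040, adjusted 0.42), beside 0.301% and 0.609% of CGNP-like cells, with median depths of 2114 and 2250 UMIs in microglia-like and 1738 and 1785 UMIs in CGNP-like cells. After thinning the shares were 18.9% and 25% (exact p = 0.21).

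Bst2 in microglia-like cells was at 165, 95.4, 122, 281 and 347 CPM with vehicle and at 201, 163, 220, 366 and 315 CPM with vismodegib, with an adjusted p of 0.80. H2-D1 there was at 650 ± 209 and 774 ± 320 CPM (SD, n = 5, adjusted p = 0.73). The microglia-like class held markers of other leukocytes in unequal amounts. Of 7 markers of T or NK cells, none had a UMI in the vehicle or WT groups, and 6 had 42 UMIs in all in the vismodegib group, with a summed level of 0 to 235 CPM per tumor. The 6 monocyte or neutrophil markers summed to medians of 2275 CPM in WT, 6893 with vehicle and 8164 CPM with vismodegib, and the 4 border macrophage markers to 5337, 1599 and 1822 CPM, while the 12 microglial markers summed to 29781, 30174 and 32399 CPM. The part of these cells in the levels of the members was not tested.

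In oligodendrocyte-like cells, which myelinate axons, 0 of 2 members tested were called (5.15% of all genes; 0 by DESeq2; 1 at an unadjusted p under 0.05). B2m was at 194, 367, 252, 328 and 314 CPM with vehicle and at 62.9, 0, 106, 288 and 133 CPM with vismodegib, with overlap through vismodegib-treated tumor 4 (log2 fold change -0.89, adjusted p = 0.19). H2-D1 was at 105, 184, 168, 103 and 143 CPM with vehicle and at 15.7, 0, 63.8, 175 and 35.9 CPM with vismodegib (log2 fold change -0.79, adjusted p = 0.38), and it passed the filter through the vehicle-treated tumors, since 1 of 5 vismodegib-treated tumors reached the level of 88.0 CPM. Vismodegib-treated tumor 4 was high in both genes. Without that tumor both genes passed, with log2 fold changes of -1.43 for B2m (adjusted p = 0.0099) and -1.91 for H2-D1 (adjusted p = 0.0088), and that call rests on its removal. In astrocyte-like cells 0 of 4 members were called (2.18% of all genes), in endothelial-like cells 0 of 2 (0%) and in vascular fibroblast-like cells 0 of 3 (1.26%), with 0 in each by DESeq2 and 0 at an unadjusted p under 0.05. Their log2 fold changes ran from -0.68 for B2m in endothelial-like cells to 0.11 for H2-D1 in astrocyte-like cells.

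Over all cells of a tumor at once, as in a bulk sample, fewer cells of a type and less RNA per cell cannot be told apart. There H2-K1 was at 11, 6.71, 3.57, 13.6 and 20.3 CPM with vehicle and at 34.5, 16.3, 36.3, 35.8 and 41.3 CPM with vismodegib, and only vismodegib-treated tumor 2 lay within the vehicle range. It rose by 1.51 on the log2 scale (SE 0.38, adjusted p = 0.018), and Ifitm2 fell by 0.79 (adjusted p = 0.028), 2 of 6 members tested beside 13.9% of all genes. Microglia-like cells were 0.996% of cells with vehicle and 2.70% with vismodegib, and this class had the highest H2-K1 level.

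**Figure D4:**
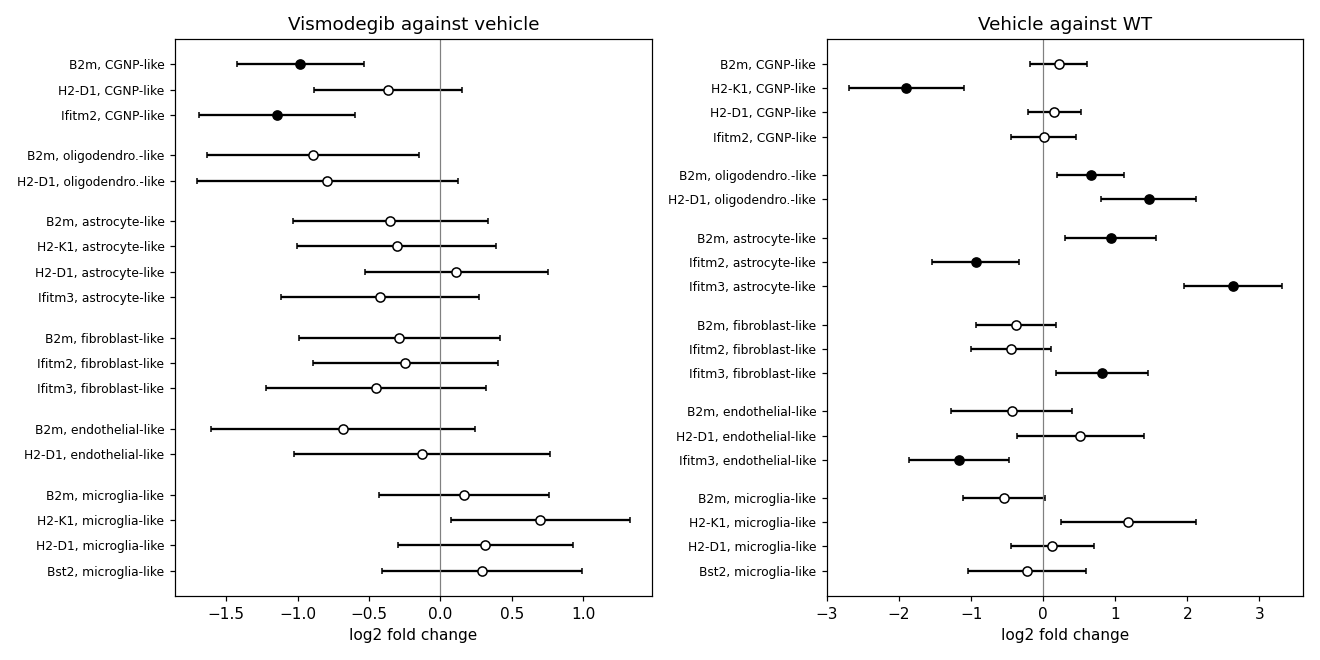
Log2 fold change (horizontal axis) with its 95% interval for each member tested in 6 classes, vismodegib against vehicle on the left and vehicle against WT on the right, with filled points for an adjusted p under 0.05. On the left only B2m (-0.98) and Ifitm2 (-1.15) in CGNP-like cells are filled, and on the right Ifitm3 in astrocyte-like cells (2.63) is farthest from 0, a gene that passed the filter on counts through the vehicle-treated tumors alone.

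Vehicle-treated tumors were compared with WT cerebella, using the same vehicle samples as above. In CGNP-like cells B2m (125 against 102 CPM), H2-D1 (62.6 against 53.1 CPM) and Ifitm2 (62.1 against 58.9 CPM) did not pass the test, with log2 fold changes of 0.21, 0.15 and 0.00. H2-K1 was called, beside 44.5% of all genes called in either direction and 23.3% lower. It was at 4.98, 6.54, 3.79, 5.30 and 5.35 CPM in WT and at 1.51, 1.01, 0.501, 1.84 and 2.05 CPM in vehicle-treated tumors, without overlap. The log2 fold change was -1.90 (SE 0.38, adjusted p = 0.00078), from 49 and 55 UMIs in 5064 and 16624 cells. H2-K1 passed the filter through WT alone, with 5 of 5 cerebella and 0 of 5 tumors at or above the level of 2.79 CPM. With no filter its log2 fold change in these cells was -1.70 (adjusted p = 0.0031).

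In astrocyte-like cells Ifitm3, Ifitm2 and B2m were tested and called, beside 22.6% of all genes, but for Ifitm3 and Ifitm2 the filter selected on the group where they were higher. Ifitm3 was at 36.3, 56.0, 61.7, 29.7 and 35.4 CPM in WT and at 96.3, 158, 207, 273 and 382 CPM in vehicle-treated tumors, so every tumor was above every cerebellum (log2 fold change 2.63, SE 0.33, adjusted p = 7.23e-07). No cerebellum reached the filter's level of 87.8 CPM, so it was tested through the tumors alone, and with no filter the log2 fold change was 2.44 (adjusted p = 6.86e-09). With vismodegib it was at 117, 90.7, 79.1, 299 and 222 CPM, also above all WT animals. Ifitm2 moved the other way, from 185, 205, 185, 161 and 130 CPM in WT to 32.1, 52.7, 41.4, 124 and 104 CPM with vehicle, without overlap (log2 fold change -0.93, SE 0.30, adjusted p = 0.020). For Ifitm2, 2 of 5 tumors and all cerebella reached the filter's level, and with no filter the log2 fold change was -1.08 (adjusted p = 0.041).

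B2m in astrocyte-like cells was at 261, 401, 424, 375 and 366 CPM in WT and at 193, 764, 124, 1118 and 805 CPM with vehicle. Vehicle-treated tumors 1 and 3 were below all WT animals and the other 3 above (log2 fold change 0.94, adjusted p = 0.027). The adjusted p was above 0.05 in 12 of 19 alternative fits, at 0.17 without vehicle-treated tumor 4, and also without any 1 of WT animals 1, 2, 4 and 5 or vehicle-treated tumors 2 and 5, so this call was weak. H2-K1 had 16 UMIs in WT and 125 with vehicle, at 39.6, 0, 0, 17.8 and 11.8 CPM and 32.1, 119, 0, 182 and 235 CPM, and did not pass the filter on counts. H2-D1 was at 23.1, 9.33, 30.9, 41.6 and 0 CPM in WT and at 96.3, 158, 0, 149 and 147 CPM with vehicle, and was not tested either. Vehicle-treated tumor 3 had 8 astrocyte-like cells, and it was the tumor at 0 for both heavy chains. Both genes had few counts in WT, so a filtered fit that admits them does so through the tumor groups, and the main fit gives no call for them. With no filter, edgeR called both higher with vehicle, from these few WT counts. The log2 fold changes were 2.89 for H2-K1 (adjusted p = 6.15e-09) and 2.31 for H2-D1 (adjusted p = 1.16e-05).

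In oligodendrocyte-like cells H2-D1 and B2m were tested and called higher, beside 26.6% of all genes called and 12.6% called higher. H2-D1 went from 51.0, 60.4, 38.2, 53.1 and 29.8 CPM in WT to 105, 184, 168, 103 and 143 CPM with vehicle, without overlap (log2 fold change 1.46, SE 0.32, adjusted p = 0.0015). It passed the filter through the tumors alone, since no cerebellum reached the level of 96.1 CPM, and with no filter the log2 fold change was again 1.46 (adjusted p = 0.0032). B2m was at 153, 211, 153, 213 and 164 CPM in WT and at 194, 367, 252, 328 and 314 CPM with vehicle, and overlapped through vehicle-treated tumor 1 (log2 fold change 0.66, SE 0.22, adjusted p = 0.033). Its adjusted p ran up to 0.15 over the alternatives and was above 0.05 without any 1 of WT animals 1, 3 and 5 or vehicle-treated tumors 2 and 5.

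In endothelial-like cells, which line vessels, Ifitm3 was called, beside 27.6% of all genes. It was at 580, 681, 565, 505 and 572 CPM in WT and at 274, 240, 187, 66.4 and 350 CPM with vehicle, without overlap (log2 fold change -1.17, SE 0.33, adjusted p = 0.013). It passed the filter through WT alone, since no tumor reached the level of 357 CPM, and with no filter it did not pass the test (log2 fold change -1.36, adjusted p = 0.092). Bst2 was at 248, 162, 403, 337 and 400 CPM in WT and at 0, 34.2, 0, 0 and 144 CPM with vehicle. These groups did not overlap either (exact permutation p = 0.0079, adjusted 0.13 over 180 tests), and edgeR with the filter did not test Bst2. With no filter its log2 fold change by edgeR was -2.49 (adjusted p = 0.0052). The share of all genes without overlap was not counted, and 27.6% of all genes tested were called in this class. A count of 3 UMIs stood for 61.8 to 199 CPM in these vehicle profiles, so the values at 0 have a high limit. Endothelial-like profiles held as few as 5 cells, and with profiles of at least 10 cells the adjusted p of Ifitm3 was 0.081. Leaving out vehicle-treated tumor 4 added B2m to the calls (log2 fold change -0.94, adjusted p = 0.046), since that tumor had 2987 CPM beside 320 to 1256 CPM in the other 4.

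In vascular fibroblast-like cells, which surround larger vessels, Ifitm3 was the 1 of 3 members called (33% of all genes), at 360, 295, 754, 352 and 863 CPM in WT and 623, 846, 976, 814 and 956 CPM with vehicle, with overlap. The log2 fold change was 0.81 with an adjusted p of 0.049, and this call was lost without any 1 of WT animals 1, 2 and 4 or vehicle-treated tumors 2 to 5. H2-K1 was at 0, 0, 19.3, 10.05 and 0 CPM in WT, from 2 UMIs in 153 cells, and at 44.5, 84.6, 133, 219 and 121 CPM with vehicle, from 32 UMIs in 106 cells, without overlap. With vismodegib it was at 61.1 to 169 CPM. H2-D1 was at 31.8, 49.2, 77.3, 50.2 and 74.0 CPM in WT and at 178, 296, 133, 282 and 128 CPM with vehicle, also without overlap. Bst2 was at 63.5, 49.2, 19.3, 40.2 and 173 CPM in WT and at 0, 0, 0, 0 and 12.8 CPM with vehicle. Vehicle-treated tumors 1 to 4 had 10, 13, 7 and 11 of these cells, and 3 UMIs stood for 93.9 to 133 CPM there, above 4 of the 5 WT values. Each of these 3 had an exact permutation p of 0.0079 and an adjusted p of 0.13, and edgeR with the filter tested none of them. With no filter, edgeR called H2-K1 (log2 fold change 3.71, adjusted p = 0.00044) and Bst2 (-2.91, adjusted p = 0.043), from the few UMIs above. The share of all genes without overlap was not counted. With 33% of all genes called here, nothing is read about these 3 from their lack of overlap.

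H2-K1 thus had lower values in CGNP-like cells of vehicle-treated tumors than in WT, and it passed the filter there through WT alone. In vascular fibroblast-like cells every tumor was above every cerebellum, from 2 UMIs in WT and without an edgeR test in the filtered fit. The difference between these classes was not tested, and no opposite direction is read from these values. In microglia-like cells H2-K1 was at 269, 253, 0, 261 and 82.7 CPM in WT, with overlap and an adjusted p of 0.067 against vehicle. None of the 4 members tested there was called by edgeR or DESeq2, beside 20.9% of all genes, with 1 at an unadjusted p under 0.05. B2m in microglia-like cells was at 5895, 5388, 5265, 6500 and 4050 CPM in WT, where 4 of 5 animals were above every vehicle-treated tumor (log2 fold change -0.55, adjusted p = 0.16). Over all cells Bst2 fell by 1.76 and Ifitm3 by 1.21 on the log2 scale (adjusted p = 0.0084 and 0.0053, 48% of all genes called), with smaller shares of endothelial-like and vascular fibroblast-like cells in the tumors, at 0.346% and 0.507% with vehicle beside 0.830% and 2.18% in WT.

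Isg15, a ubiquitin-like protein added to others after interferon, Ifit3, an interferon-induced partner of Ifit1, and Irf7, a transcription factor that drives interferon genes, were found in 62, 40 and 32 of the 37946 cells. At least 1 of the 3 was found in 127 cells, and 7 cells had at least 2 of them. Of these 7 cells, 5 were microglia-like, 1 was endothelial-like and 1 vascular fibroblast-like, while none of 32263 CGNP-like cells had more than 1 of the 3 genes. The highest count of Ifit3 in a cell was 5 UMIs, in a microglia-like cell of vehicle-treated tumor 5 that also had 1 UMI of Irf7, 5 of Rsad2, 4 of Ifit1 and 3 of Cxcl10, all interferon targets. A microglia-like cell of vismodegib-treated tumor 4 had the highest count of Isg15, 8 UMIs, together with 1 of Ifit3 and 4 of Cxcl10. Of the 7 cells, 3 came from WT cerebella, 1 from a vehicle-treated tumor and 3 from vismodegib-treated tumors.

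Isg15 was not found in 199 microglia-like cells of vehicle-treated tumors, which allows up to 1.51% of cells with a UMI (counting error only, over cells of 5 tumors), and was found in 7 of 333 cells with vismodegib (18 UMIs) and in 3 of 96 WT cells. Shares averaged over animals were 0% and 2.13% (exact permutation p = 0.048, adjusted 0.43), and after thinning 0% and 0.610% (exact p = 0.44). In CGNP-like cells, 3 of 16624 and 6 of 10575 cells had a UMI of it. In astrocyte-like cells with vismodegib it was in 16 of 449 cells, all from tumors 4 and 5, at 22.5 and 18.9 CPM, with 0 CPM in the other 3. Endothelial-like cells of WT cerebella had it in all 5 animals, at 41.4, 32.4, 80.7, 84.2 and 57.2 CPM (8 of 61 cells), whereas with vehicle it was at 0, 34.2, 149, 0 and 0 CPM. Ifit3 was at most 1.14 CPM in CGNP-like cells of any animal and Irf7 at most 1.90 CPM.

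Other genes of the pathways were counted in CGNP-like cells from 6 lists of 101 genes, 98 of them in the tables. With vismodegib, 1 of 2 further heavy chains tested fell, 1 of 7 genes of peptide loading rose, 0 of 4 interferon receptors passed, 2 of 12 signalling genes and sensors rose and 1 fell, and 1 of 10 other interferon-stimulated genes fell, where 12.9% of all genes were called. MHC class II had no gene tested. Median log2 fold changes of these lists were -0.81, -0.03, 0.02, 0.14 and -0.28, beside 0.00 for all genes. At an unadjusted p under 0.05, 1 of the 4 receptors counted. The share of all genes at that threshold was not counted, so nothing is read from this count.

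The sensor adaptor STING, made by Tmem173, was among the called genes. It was at 1.25, 0, 1.90, 0.757 and 0.891 CPM in WT, at 10.8, 9.10, 5.01, 7.35 and 6.94 CPM with vehicle and at 0, 1.5, 0.922, 0.919 and 1.04 CPM with vismodegib. All vehicle-treated tumors were above both other groups (log2 fold change -3.01 with vismodegib, SE 0.40, adjusted p = 0.00046). Tmem173 passed the filter through the vehicle-treated tumors alone, with no vismodegib-treated tumor and no cerebellum at its level, and with no filter the log2 fold change was -3.07 (adjusted p = 2.29e-05). Ifit2, a relative of Ifit3, was at 13.1, 10.2, 14.2, 9.84 and 15.2 CPM in WT, at 28.7, 22.5, 22, 21.6 and 23.5 CPM with vehicle and at 14.8, 11.7, 16.6, 11.1 and 15.4 CPM with vismodegib. It fell with vismodegib by 0.77 on the log2 scale (adjusted p = 0.0092), and again the vehicle-treated tumors stood above the other groups. H2-T23, a nonclassical heavy chain (Qa-1), was at 10.6, 12.3, 7.26, 12 and 18.1 CPM with vehicle and at 3.46, 1.5, 4.61, 8.39 and 3.52 CPM with vismodegib, with overlap through vismodegib-treated tumor 4 (log2 fold change -1.41, adjusted p = 0.028), and at 0.948 to 5.35 CPM in WT.

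STAT2, which carries the interferon signal to the nucleus, is made by Stat2, and this gene rose with vismodegib. Stat2 was at 29.99, 21.7, 23.3, 22.2 and 16.7 CPM with vehicle and at 31.2, 45.8, 42.4, 39.3 and 53.6 CPM with vismodegib, without overlap (log2 fold change 0.92, adjusted p = 0.0047). Tapbp, whose product tapasin helps load peptide, was at 4.91 to 8.27 CPM with vehicle and 7.96 to 15.3 CPM with vismodegib (log2 fold change 0.91, adjusted p = 0.026). Summed over all CGNP-like cells, Stat2 and Tapbp were thus higher with vismodegib, and B2m, Ifitm2, Ifit2 and H2-T23 were lower. The mix of stages differed between these groups, and the pathway genes were not set to a fixed mix. Whether the same cells carry both directions was not tested.

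**Figure D5:**
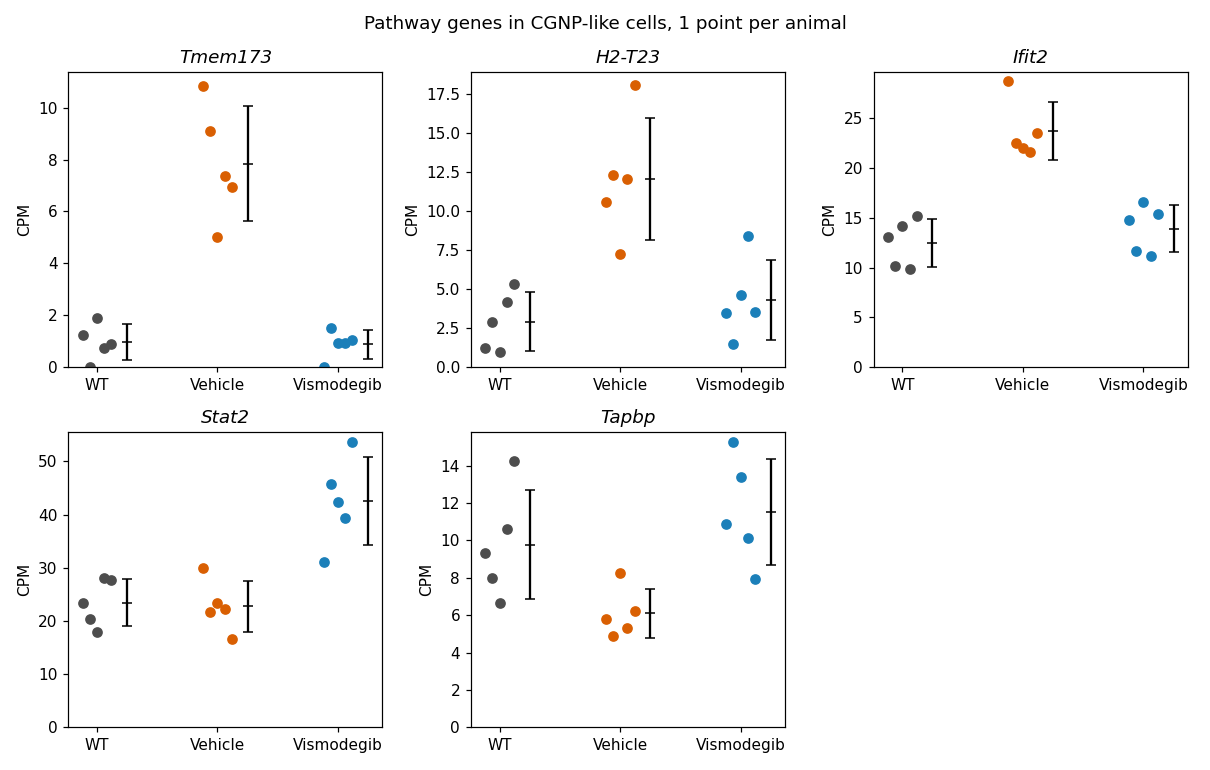
Level (CPM) of 5 called pathway genes in CGNP-like cells, 1 point per animal, with mean and SD (n = 5) beside the points. Tmem173, H2-T23 and Ifit2 are lower with vismodegib than with vehicle, and Stat2 and Tapbp are higher.

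Against WT, with the same vehicle samples, the further heavy chains went in both directions in CGNP-like cells, 2 of 4 lower and 1 higher. H2-Q7 was at 9.97, 9.44, 8.53, 9.46 and 10.7 CPM in WT and 0.504 to 2.5 CPM with vehicle (log2 fold change -2.79, adjusted p = 2.34e-05), and the log2 fold change of H2-Q4 was -2.27. Both passed the filter through WT alone, as no vehicle-treated tumor reached its level, and were not tested between vismodegib and vehicle. With no filter their log2 fold changes were -2.59 (adjusted p = 1.17e-06) and -2.06 (adjusted p = 0.00031). H2-Q7 and H2-Q4 are nonclassical heavy chains, and how far their reads are shared with related genes was not tested. H2-T23 was 2.01 higher on the log2 scale. Of 7 loading genes 1 rose and 2 fell, with Pdia3 at 293 to 374 CPM in WT and 170 to 239 CPM with vehicle, of 4 receptors 1 fell (Ifngr2, -1.40), of 12 signalling genes 5 rose and 1 fell, with Tmem173 2.92 and Irf3 1.39 higher, and of 8 other interferon-stimulated genes 2 rose and 4 fell. These counts stand beside 44.5% of all genes called in this comparison, and nothing is read from them about the lists.

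Genes whose pattern over the classes was most like that of each member were ranked by Pearson's r of mean log2(CPM + 10) over 21 class-by-group points, among 13751 genes. These points share libraries and groups, so r is a description. Cyba (r = 0.95) and Renbp (0.94) were nearest to B2m, Sft2d2 (0.94) and Abca1 (0.93) to H2-K1, and Tgfb1 (0.87) and Tm6sf1 (0.85) to H2-D1. S100a11 (0.87) and Fkbp7 (0.86) were nearest to Ifitm2, Eva1b (0.97) and Lpp (0.97) to Ifitm3, Sdcbp (0.89) and Lgals9 (0.89) to Bst2, and Trim12a (0.85) and Fam217a (0.85) to Isg15. Ifit3 and Irf7 stayed under the minimum level of 20 CPM for this ranking.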

How the data were processed

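Libraries were made by the Drop-seq protocol from papain-dissociated tissue. Reads were aligned by the authors with STAR, through Drop-seq Tools, to mm10 with Cre and SmoM2/EYFP sequences added, and the authors deposited raw counts of UMIs per gene and barcode, which are not normalized. Tumor cells carried a spike-in of human cells and barcodes were first selected as mouse, and WT and tumor cells were captured on devices of different material. Which annotation release was used: not given in the sources consulted. The submitters' processing notes name STAR 5.4b.

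A barcode was kept if it held 500 or more UMIs from 500 or more genes and if its UMIs, genes and mitochondrial share lay within 5 SD above the median of the animal. No doublet caller was run, and the upper limit was the only step against doublets. Tumor and WT cells were clustered separately (igraph 0.11.9, 30 neighbours, resolution 0.8) and named from marker lists. The smallest mean log2 fold of 0.5 for a stage name and the hemoglobin limit of 50% were set after clusters were seen. Counts were summed per animal and class, for classes of at least 5 cells in an animal, and tested with edgeR 4.0.16 (TMM, filterByExpr, quasi-likelihood test, Benjamini-Hochberg adjustment over all genes, threshold 0.05) in R 4.3.3. DESeq2 1.42.0, no filter, thinning, other cell limits, other class rules, a replicate block and leaving out each animal were alternatives. Levels of single genes were also compared by exact permutation tests of log2(CPM + 10) over animals, two-sided, in scipy 1.17.1, and p-values measure the spread between animals. Simulated counts with known changes were used to test the count model. The members and lists were chosen with earlier results of these data known. All 9 members are named, and from the lists the called genes with the lowest adjusted p, up to 8 per class and comparison, except that 1 called gene is not reported here. Gene positions come from GENCODE M21 on GRCm38 and start windows from RefSeq on GRCm38.p6.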

Additional observations from a re-analysis of the deposited data

How the results depend on the processing

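B2m and Ifitm2 were called lower with vismodegib in CGNP-like cells in every fit over all these cells, including each fit without 1 animal, with adjusted p of 0.00018 to 0.022 and 0.00025 to 0.027, but 0 members were called within Node A-like, Node B-like, Node C-like or Node D-like cells alone. Exact permutation tests at a fixed stage mix gave -0.54 and -0.50 on the log2(CPM + 10) scale. H2-K1 against WT in CGNP-like cells passed the filter through WT alone. With thinning to the lowest total it fell under the filter and 0 members were called, and without the filter 2 were called, H2-K1 and Bst2.

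Against WT, the 3 calls in astrocyte-like cells became 1 with marker-based classes, 0 with thinning and 5 in 1 fit over the 3 groups, which added H2-K1 (3.00) and H2-D1 (2.44), whose levels in WT were under the filter, so that they entered through the tumors and these calls lend no support. Without the filter H2-K1 (2.89) and H2-D1 (2.31) were added and B2m was lost. H2-D1 was also called with at least 10 cells and without WT animal 1, 2, 3, 4 or 5 or vehicle-treated tumor 3 (2.27 to 2.78). In those filtered fits H2-D1 again entered through the tumors, so these calls lend no support either. The 2 calls in oligodendrocyte-like cells became 1 without the filter, in 1 fit over the 3 groups, with an upper limit of 4 SD and with marker-based classes, and 0 with thinning. The 0 calls in microglia-like cells became 1 by different genes, Ifitm2 without the filter (-1.70), H2-K1 with 4 SD (1.23) and with marker-based classes (1.67), and B2m with thinning (-0.73). The 1 call in endothelial-like cells, Ifitm3, was lost without the filter, where Ifitm2 and Bst2 made 2 calls, and the count was 0 with at least 10 cells or with thinning. The 1 call in vascular fibroblast-like cells, Ifitm3, was also lost without the filter, where H2-K1 (3.71) and Bst2 (-2.91) made 2 calls, and the count was 0 in 1 fit over the 3 groups, with 4 SD, with at least 10 cells or with thinning. The cause was not tested, apart from the fewer counts that thinning leaves.

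Leaving out 1 animal at a time, counts of members called ran from 2 to 2 in CGNP-like and 0 to 2 in oligodendrocyte-like cells with vismodegib, with 0 to 0 in the other 4 classes. Against WT they ran from 1 to 1 in CGNP-like, 2 to 4 in astrocyte-like, 1 to 2 in oligodendrocyte-like, 0 to 1 in microglia-like, 1 to 2 in endothelial-like and 0 to 1 in vascular fibroblast-like cells. The 1 call in microglia-like cells was H2-K1, without vehicle-treated tumor 2 or 4.

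The difference in share of cells with a UMI, in percentage points, became -3.07 for B2m in CGNP-like and -4.86 for H2-D1 in oligodendrocyte-like cells after thinning, both past an unadjusted p of 0.05, and 6.07 for H2-K1 and 0.610 for Isg15 in microglia-like cells, no longer past it. Without 1 animal each it ran from -11.8 to -7.71 for B2m and -8.12 to -5.16 for Ifitm2 in CGNP-like cells, from -13.0 to -3.67 for H2-D1 in oligodendrocyte-like cells, and from 11.4 to 18.1 for H2-K1 and 1.44 to 2.66 for Isg15 in microglia-like cells.

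Whether same-numbered animals form pairs is not stated in the labels. Same-numbered vehicle-treated and vismodegib-treated tumors have adjacent serial numbers, and the paper states that littermates were injected. Deviations of same-numbered animals correlated at -0.139 to 0.387 in CGNP-like cells of these 2 groups, over 0.1 in 2 of 5 pairs. The 2 were replicates 4 and 5, at 0.370 and 0.387. These correlations cannot settle whether the animals were paired, and the exact tests between groups took them as unpaired. With the replicate number as a block 2 members were still called with vismodegib in CGNP-like cells, while the calls against WT became 1 in astrocyte-like and 1 in oligodendrocyte-like cells. No other count changed with the block. Of 196 alternative values of the 10 called fold changes, 151 kept their direction and side of the threshold and 45 kept the direction alone. Fits in which the gene was not tested gave no value and are not among the 196. An example is H2-K1 in CGNP-like cells with thinning, which fell under the filter. The tally thus leaves out calls lost to the filter and does not measure how often a call held over all fits. It also holds calls against WT that passed the filter through the higher group alone. These were H2-K1 in CGNP-like, Ifitm3 in astrocyte-like and in endothelial-like and H2-D1 in oligodendrocyte-like cells. They gave 18, 16, 16 and 16 of the 151 values, and Ifitm2 in astrocyte-like cells, with 2 of 5 tumors at the filter's level, gave 17. The tally lends these calls no support. At these depths a member with few UMIs cannot be called absent.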
